A study of Mus musculus with 6 samples.

Results

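The YPEL (Yippee-like) family comprises 5 mouse genes, Ypel1 to Ypel5, which were taken by symbol from the 17060 genes listed in at least 1 culture. The family was chosen on measured values of these same cultures, namely the difference in expected count between NUP-17d and DMSO after correction for library composition. Each member's difference is therefore given as a description, with its standard error and no p-value. Ypel4 was the member with the largest difference, at a level 2.12-fold lower with NUP-17d, and Ypel2 was 1.72-fold higher. Ypel3 and Ypel5 were 1.28-fold and 1.33-fold lower, and the cultures overlapped for Ypel1, which had few reads. Adjusted p was under 0.05 for 4 of the 5 members in the edgeR fit across all genes, as it was for 35.3% of the 12306 genes tested. Of these 4, 1 was higher, against a background of 16.4% of genes higher, and 3 were lower, against 18.9% lower.

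Lineage-negative bone marrow cells of wild-type mice, which are enriched for stem and progenitor cells, were grown in medium that holds erythropoietin (EPO), in which they mature into erythroblasts. For 48 hours the cultures received either 10 μM NUP-17d, a small-molecule inhibitor of pleckstrin-2 (Plek2), or the vehicle DMSO. Each group had 3 cultures, and both groups shared the wild-type genotype, the medium and the time. The labels do not give the dose, which comes from a legend, and do not say whether the 3 cultures came from separate mice, and they give no age, so the spread between cultures may be technical.

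YPEL proteins are small zinc-binding proteins named after the fly protein Yippee and conserved across eukaryotes. Ypel3 is induced by p53 and restrains growth, Ypel4 is needed for a normal red cell membrane in mice, and Ypel5 associates with the CTLH ubiquitin ligase, a complex that acts in erythroid maturation. Ypel1 has been linked to cell shape, and Ypel2 is less well characterised.

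The members resemble each other closely in sequence, so the stretch below is shown to make visible how far a read of 50 bases can tell them apart. It is a run of 60 in-frame coding bases from the GENCODE M21 transcripts, positions 97 to 156 of the coding sequence in Ypel1, Ypel2 and Ypel3, 121 to 180 in Ypel4 and 79 to 138 in Ypel5. The stretch was chosen as the one where Ypel1, Ypel3 and Ypel4 together differ least from Ypel2. Capitals mark the bases that differ from Ypel2.
Ypel1: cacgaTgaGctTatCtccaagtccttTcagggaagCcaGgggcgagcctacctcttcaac
Ypel2: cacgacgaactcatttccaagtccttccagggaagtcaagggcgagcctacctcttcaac
Ypel3: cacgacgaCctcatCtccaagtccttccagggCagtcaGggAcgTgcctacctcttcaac
Ypel4: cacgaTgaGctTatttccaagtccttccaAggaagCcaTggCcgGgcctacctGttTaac
Ypel5: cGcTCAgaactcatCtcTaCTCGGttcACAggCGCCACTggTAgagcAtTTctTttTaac

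In this stretch Ypel1 differed from Ypel2 at 7 bases, Ypel3 at 6, Ypel4 at 10 and Ypel5 at 28. Over the whole coding sequences, identity among Ypel1 to Ypel4 ranged from 71.4% between Ypel3 and Ypel4 to 82.2% between Ypel2 and Ypel3. Ypel5 was the most distant, with 48.9% to 52.3% identity to the others. The coding sequences encode 118 residues in Ypel1, 119 in Ypel2 and Ypel3, 127 in Ypel4 and 121 in Ypel5. No run of 50 bases was shared between the transcripts of any pair of members, and the closest pairs of coding windows of that length had 4 mismatches. Of the 50-base runs in Ypel1 transcripts, 10.7% also occurred in transcripts of other genes, Ppil2 and Gm9974, which lie over Ypel1 on the opposite strand. The share was 1.17% for Ypel5 and 0 for Ypel2, Ypel3 and Ypel4.

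The 6 libraries held 20076409 to 20419018 expected counts each. Hemoglobin genes took 18.3% to 20.3% of the counts in the DMSO cultures and 11.8% to 13.1% in the NUP-17d cultures. The TMM composition factors were 0.887 to 0.930 for the DMSO libraries against 1.08 to 1.11 for the others. All 15 erythroid markers examined were detected and called lower with NUP-17d. Their summed level was 219329 to 253301 TMM-scaled CPM with DMSO against 121264 to 135641 with NUP-17d. TMM-scaled CPM are expected counts relative to the library total multiplied by the TMM factor of that library. Levels given in CPM are on this scale. With library totals only 13 of the 15 were called lower, Klf1 and Gata1 being the exceptions. Markers of other lineages were present as well. The sum over the 10 neutrophil markers was 3929 to 4087 CPM with DMSO and 4000 to 4250 CPM with NUP-17d, with 1 higher and 1 lower in the TMM fit. The 10 macrophage markers summed to 2940 to 3184 CPM and 3293 to 3600 CPM, with 4 higher and 2 lower, and the 8 megakaryocyte markers summed to 471 to 521 CPM and 548 to 567 CPM, with 6 higher. Of 8 stem and progenitor markers tested 2 were higher and 1 was lower (519 to 523 CPM and 527 to 545 CPM), and of 6 mast cell and basophil markers 1 was higher and 3 were lower (234 to 251 CPM and 207 to 214 CPM). B cell markers summed to 16.8 to 18.1 CPM and 15.4 to 16.0 CPM, with 2 of 6 lower, and T cell markers to 5.22 to 6.23 CPM and 5.79 to 6.10 CPM. None of the 5 T cell markers tested was called by edgeR with TMM (1 at an unadjusted p under 0.05) or by DESeq2, which gave an adjusted p for 3 of them. These counts rest on the scaling. With library totals only, 8458 of the 12306 genes tested were called higher and 657 lower. On that scale, 9 of 10 neutrophil, 7 of 10 macrophage, 8 of 8 megakaryocyte and 7 of 8 stem and progenitor markers were called higher. The lower calls of the macrophage markers Adgre1 and C1qa, named after their values were seen, held in 6 and 8 of the 13 alternatives and not with library totals only. On that scale 2 of 6 mast cell and basophil markers, 1 of 6 B cell markers and 1 of 5 T cell markers (Cd8a, 0.69, edgeR adjusted p = 0.0027, named after its value was seen) were called higher, and 1 B cell marker was called lower. The low-count filter removed Mecom, Tpsb2, Mcpt1 and Cd3g, and Mcpt1 was at 0 in the DMSO cultures. In bulk RNA, fewer cells of a type and less RNA per cell cannot be told apart, and the part of this marker shift in the YPEL values was not tested.

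**Figure D1:**
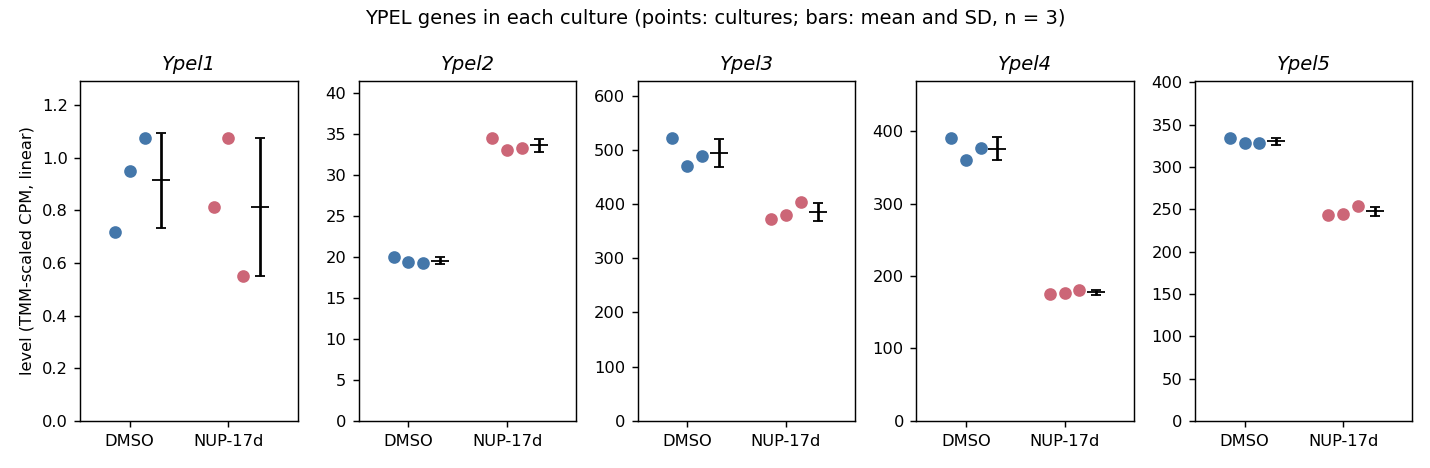
Level of each YPEL gene in TMM-scaled CPM (linear axes from 0, 1 panel per gene) in the 3 DMSO cultures (blue) and the 3 NUP-17d cultures (red), with bars for the mean and SD. Ypel2 was higher and Ypel3, Ypel4 and Ypel5 were lower in all 3 NUP-17d cultures, while the Ypel1 groups overlapped.

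Ypel4, whose product red cells need for intact membranes, had expected counts of 7074, 6831 and 7007 in DMSO cultures 1 to 3 and of 3866, 3938 and 3943 in NUP-17d cultures 1 to 3. As TMM-scaled CPM its levels were 391, 360 and 376 in the DMSO cultures against 175, 177 and 181 in the NUP-17d cultures. The groups lay far apart, and the highest NUP-17d culture was below the lowest DMSO culture. The mean went from 376 ± 15.4 CPM to 177 ± 3.04 CPM (SD, n = 3 cultures each), a log2 fold change of -1.08 (SE 0.037). Of the 12306 genes tested, 63 had a lower log2 fold change than Ypel4.

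Ypel2 was the member at a higher level with NUP-17d. Its expected counts were 363, 368 and 358 with DMSO and 765, 739 and 726 in the NUP-17d cultures, and its levels were 20.1, 19.4 and 19.2 CPM and 34.6, 33.1 and 33.3 CPM. The cultures within a group were close to each other and the groups did not overlap. The mean went from 19.6 ± 0.438 CPM to 33.7 ± 0.803 CPM (SD, n = 3 each), a log2 fold change of 0.78 (SE 0.055), and 126 of the genes tested had a higher one.

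Ypel3, the growth-restraining p53 target of the family, had 9453, 8921 and 9109 expected counts with DMSO and 8226, 8466 and 8810 with NUP-17d. The levels were 522, 470 and 489 CPM with DMSO and 372, 380 and 404 CPM with NUP-17d. On this scale no culture of a group reached into the range of the other. In the authors' FPKM values, per transcript length and library total, the groups did overlap (440 to 463 with DMSO, 413 to 442 with NUP-17d). The mean went from 494 ± 26.4 CPM to 385 ± 16.6 CPM (SD, n = 3 each), and the log2 fold change was -0.36 (SE 0.040).

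Ypel5, the partner of the CTLH complex, had 6053, 6221 and 6104 expected counts with DMSO and 5387, 5453 and 5544 with NUP-17d. Its levels were 335, 328 and 328 CPM and 244, 244 and 254 CPM. The groups were separate, and relative to its level Ypel5 varied least of the 5 members among the DMSO cultures. The mean went from 330 ± 3.79 CPM to 247 ± 5.84 CPM (SD, n = 3 each), a log2 fold change of -0.42 (SE 0.034).

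Ypel1 was near the limit of detection at this depth. Its expected counts were 13.0, 18.1 and 20.1 with DMSO and 18.0, 24.1 and 12.0 with NUP-17d, so that counting error alone was 20.4% to 28.9% of each value. The levels, 0.718, 0.949 and 1.07 CPM with DMSO and 0.814, 1.08 and 0.550 CPM with NUP-17d, overlapped. A difference in Ypel1 was not detectable, with a log2 fold change of -0.17 (SE 0.30). The labelled protocol does not mark strand, so reads of Ypel1 and of the genes over it on the other strand cannot be told apart where they overlap. Ppil2, which overlaps Ypel1 by 491 bases, stood at 75.5 CPM in both groups.

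All 5 members passed the low-count filter. In TMM-scaled CPM the groups did not overlap for 4 of the 5, compared with 46.0% of all genes tested. The median log2 fold change was -0.36 for the members and 0.014 for all genes. The size of the differences depended on the scaling. With library totals only, the median of all genes tested was 0.28, and the log2 fold changes were 1.05 for Ypel2, -0.091 for Ypel3, -0.82 for Ypel4 and -0.15 for Ypel5. Relative to that median they were 0.77, -0.37, -1.10 and -0.43. Their closeness to the TMM values follows from the arithmetic, since both steps take out a shift common to all genes. It does not show which scaling is right. Of all genes called, 46.5% were higher with TMM and 92.8% with library totals only. Ypel2, Ypel3, Ypel4 and Ypel5 kept their direction under all 13 alternatives, whereas Ypel1 was lower in 10 of the 14 settings (the main one included) and higher in the other 4.

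**Figure D2:**
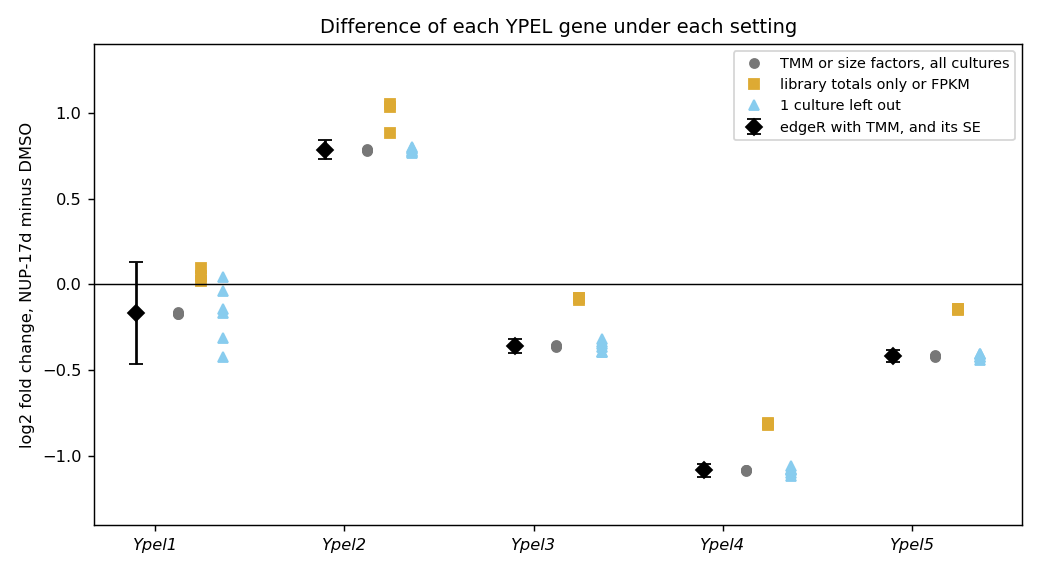
Log2 fold change (NUP-17d minus DMSO) of each YPEL gene in the edgeR fit with TMM (black diamond, bar for the SE) and under each alternative (grey circles for other fits that correct for composition, yellow squares for library totals or deposited FPKM, blue triangles for fits without 1 culture). For Ypel2 to Ypel5 the yellow squares lie above the other symbols, Ypel3 ranged from -0.40 to -0.081, and Ypel1 lies on both sides of 0.

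To compare levels between genes, the deposited FPKM values, which are per transcript length, were divided by the TMM factors. With DMSO, Ypel4 (512 FPKM) and Ypel3 (496 FPKM) were the most abundant and their cultures overlapped. They were followed by Ypel5 at 144, Ypel2 at 3.92 and Ypel1 at 0.314 FPKM, and each of these steps was larger than the spread between cultures. With NUP-17d the order was Ypel3 (389 FPKM), Ypel4 (242), Ypel5 (108), Ypel2 (6.76) and Ypel1 (0.279), without overlap between neighbours. The Ypel4 to Ypel3 ratio, which does not depend on the library scaling, was 1.02, 1.04 and 1.04 in the DMSO cultures and 0.637, 0.628 and 0.604 in the NUP-17d cultures.

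The family as a whole summed to 1155 ± 47.2 TMM-scaled FPKM in the DMSO group against 747 ± 23.9 in the NUP-17d group (SD, n = 3 each). Ypel4 made up 44.3% ± 0.217 of that sum in the former and 32.5% ± 0.493 in the latter, and the share of Ypel3 went from 42.9% ± 0.442 to 52.1% ± 0.653. Ypel5 held 12.4% ± 0.388 and 14.5% ± 0.128, and Ypel2 held 0.340% ± 0.0094 and 0.907% ± 0.046. In all 4 of these genes the shares did not overlap between the groups. Levels per length rest on the length assigned to each gene. The deposited tables gave Ypel4 752 bases, against 1676 bases for the GENCODE transcript, and with GENCODE lengths Ypel4 was below Ypel3 in the DMSO group too, at 224 against 470 CPM per kilobase. Its share of the family was then 27.9% with DMSO and 18.9% with NUP-17d.

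**Figure D3:**
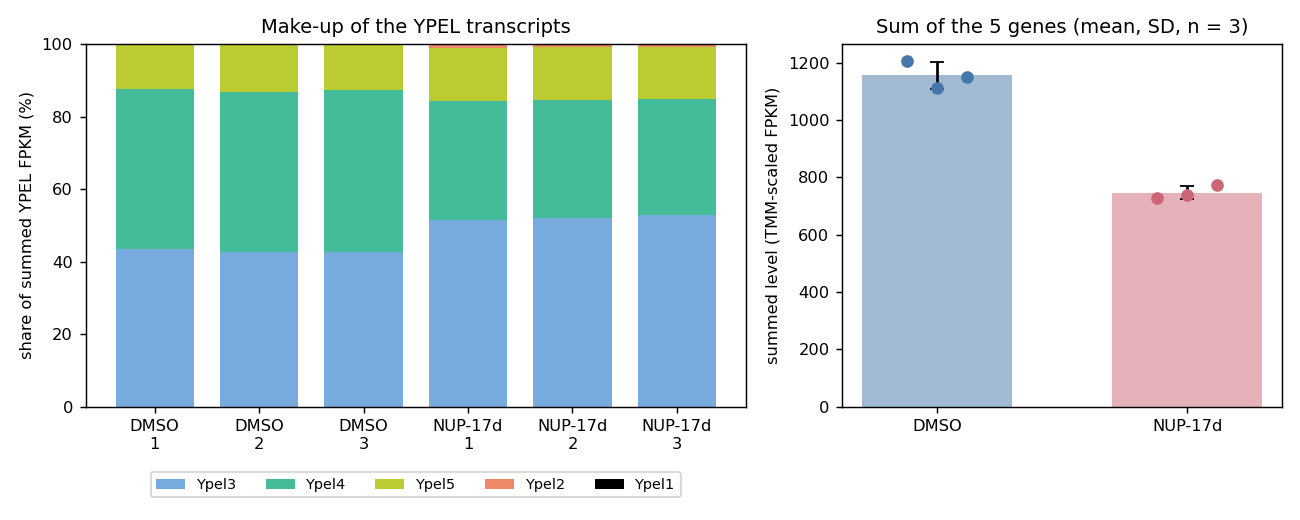
Share of each gene in the summed YPEL FPKM in each culture (left, %) and the sum of the 5 genes in TMM-scaled FPKM (right, bars for the group mean with SD, points for the 3 cultures). The Ypel4 share was 44.2% to 44.6% in the DMSO cultures and 31.9% to 32.8% in the NUP-17d cultures.

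Because Ypel5 associates with the CTLH complex, an E3 ubiquitin ligase, the 11 genes of the complex and of its E2 enzyme were read in the same fit. Of the 11, 5 fell, 1 rose and 5 were not called, so that 54.5% were called beside 35.3% of all genes tested, with a median log2 fold change of -0.077 against 0.014 for all genes. The genes that fell most had the highest levels. Ranbp10, a scaffold subunit, fell from 1560 ± 67.5 to 944 ± 35.1 CPM (log2 fold change -0.73, SE 0.039, edgeR adjusted p = 3.54e-14). Ube2h, the E2 enzyme, fell from 1500 ± 33.9 to 926 ± 13.6 CPM (-0.70, SE 0.035, edgeR adjusted p = 1.05e-14), and Wdr26, a subunit needed for erythroid maturation, from 1016 ± 35.1 to 661 ± 11.5 CPM (-0.62, SE 0.036, edgeR adjusted p = 1.40e-13). These 3 calls held under all 13 alternatives, and the 3 log2 fold changes lay below that of Ypel5. The erythroid markers given above ran from -1.49 to -0.24 (median -0.76), and the part of their shift in the CTLH values was not tested. Rmnd5a (-0.21, SE 0.033) and Mkln1 (-0.22, SE 0.052) were also called lower, but with library totals only their log2 fold changes were 0.060 and 0.045 and neither was called.

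Maea, a RING subunit known also as the erythroblast macrophage protein, rose from 58.6 ± 2.28 to 64.6 ± 2.82 CPM (log2 fold change 0.14, SE 0.044, edgeR adjusted p = 0.014). The call was lost with DESeq2 (adjusted p = 0.077), without DMSO culture 3 (0.11, edgeR adjusted p = 0.097) and without NUP-17d culture 3 (0.11, edgeR adjusted p = 0.080). The other subunits were not called. Their log2 fold changes were 0.11 for Rmnd5b, 0.029 for Ranbp9, -0.077 for Gid8, 0.0075 for Armc8 and 0.069 for Gid4. With library totals only 6 genes of the list were called higher and 3 lower, beside 8458 and 657 of the 12306 genes tested. The summed level of the list was 4730 to 4975 CPM with DMSO and 3175 to 3281 CPM with NUP-17d.

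The red cell membrane list, read because of the known role of Ypel4, had 20 of 22 genes lower and 1 higher, beside 18.9% and 16.4% of all genes tested, with a median log2 fold change of -0.55 against 0.014 for all genes. With library totals only 17 were called lower and 3 higher, beside 657 and 8458 of the 12306 genes tested. Among the genes with the lowest p-values were Kel and Tmod1. Kel, the gene of the Kell blood group protein, fell from 366 ± 4.93 to 219 ± 5.65 CPM (-0.74, SE 0.034, edgeR adjusted p = 2.59e-15). Tmod1, encoding a protein that caps actin filaments in the membrane skeleton, fell from 419 ± 14.0 to 249 ± 9.42 CPM (-0.75, SE 0.037, edgeR adjusted p = 7.66e-15). The log2 fold change of Ypel4, -1.08, lay below that of all 22 genes. The exceptions were Piezo1, a mechanosensitive channel, which rose (0.14, SE 0.039, edgeR adjusted p = 0.0061) but was not called without DMSO culture 3 (0.11, edgeR adjusted p = 0.058), and Slc2a1, a glucose transporter, at 0.043 (SE 0.039). Xk, at -0.12, was not called without DMSO culture 3 (-0.11, edgeR adjusted p = 0.054) and was called higher with library totals only (0.15). Piezo1, Slc2a1 and Xk were named here after their values were seen. The same shift of erythroid markers given above runs through this list, which shares genes such as Slc4a1 and Epb42 with it, and its part in the Ypel4 value was not tested.

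The p53 target list, read because p53 induces Ypel3, was mixed. Of 18 genes 6 were lower, 2 were higher and 10 were not called, so that 44.4% were called beside 35.3% of all genes tested, with a median log2 fold change of -0.064 against 0.014 for all genes. Bbc3, the gene of the apoptosis inducer PUMA, fell from 299 ± 16.8 to 222 ± 9.79 CPM (log2 fold change -0.43, SE 0.041, edgeR adjusted p = 2.13e-09) and was called lower under all 13 alternatives. Bax, named here after its value was seen, rose (0.22, SE 0.046, edgeR adjusted p = 4.34e-04) and was called higher under all 13. Sesn2, encoding a stress sensor upstream of mTORC1, was at -0.24 (SE 0.038, edgeR adjusted p = 9.35e-06), and the cyclin gene Ccng1 was at -0.20 (SE 0.035, edgeR adjusted p = 3.31e-05). With library totals only Sesn2 and Ccng1 were at 0.024 and 0.062 and were not called. On that scale 11 of the 18 genes were called higher and 1 lower, beside 8458 and 657 of the 12306 genes tested. The Ypel3 value of -0.36 lay between Bbc3 and the rest of the list.

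**Figure D4:**
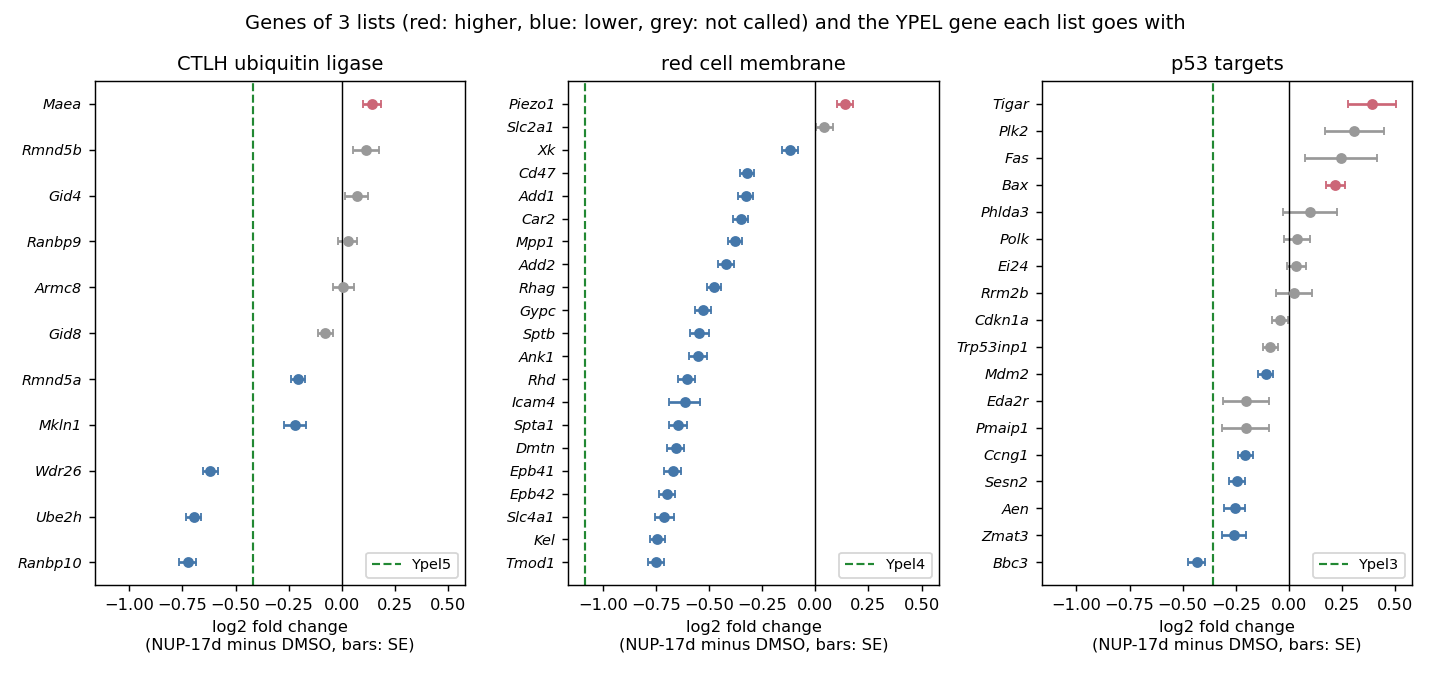
Log2 fold change (NUP-17d minus DMSO, edgeR with TMM, bars for the SE) of the genes of the CTLH, red cell membrane (21 of its 22 genes) and p53 target lists, with the dashed line at the YPEL gene that each list goes with. Ranbp10, Ube2h and Wdr26 stand apart from the other CTLH genes, the line of Ypel4 lies below all membrane genes plotted, and the p53 targets lie on both sides of 0.

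Of 3 genes whose proteins share the zinc-binding fold of the YPEL proteins, Crbn, the substrate receptor targeted by thalidomide, was called lower by a small margin (46.8 ± 2.46 to 43.1 ± 0.618 CPM, log2 fold change -0.12, SE 0.047, edgeR adjusted p = 0.049). That call held in 2 of the 13 alternatives, and with library totals only Crbn was called higher (0.15). Without single cultures other than DMSO culture 3, its adjusted p in edgeR was 0.054 to 0.27. The centromere genes Mis18a (-0.076, SE 0.062) and Oip5 (-0.038, SE 0.063) were not called.

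The 5 members lie on 5 chromosomes of GRCm38 (mm10), the build named in the submitters' processing notes. In the GENCODE M21 annotation Ypel1 spans chr16:17069696-17087045 on the plus strand and Ypel2 chr11:86936425-86993707 on the minus strand. Ypel3, the shortest gene at 3560 bases, spans chr7:126776955-126780514 on the plus strand. Ypel4 spans chr2:84734058-84738655 and Ypel5 chr17:72836453-72851195, both on the plus strand. The protein-coding genes next to each member were read in the same fit. Of the 8 neighbours tested, 4 were called, 3 of them lower, beside the 35.3% of all genes. Clp1, an RNA kinase gene 6708 bases from Ypel4, fell from 38.6 to 28.4 CPM in the mean of 3 cultures (log2 fold change -0.44, SE 0.052, edgeR adjusted p = 1.05e-07). Tbx6, 969 bases after Ypel3, was at -0.19 (SE 0.051, edgeR adjusted p = 0.0057). Beside Ypel2, Dhx40 was at -0.20 (SE 0.040, edgeR adjusted p = 2.80e-04) and Gdpd1 at 0.35 (SE 0.13, edgeR adjusted p = 0.042). The neighbours were read in the edgeR fit with TMM only. Gdpd1 had few reads (mean counts 98.0 with DMSO and 149 with NUP-17d), and its call was not read in the alternatives. The lower call of Rmnd5a, close in size to those of Tbx6 and Dhx40, was lost with library totals only. Among the neighbours not called were 2610318N02Rik beside Ypel1, Gdpd3 beside Ypel3 and Lbh beside Ypel5. Alk, next to Ypel5, averaged 0 counts with DMSO and 0.33 with NUP-17d and was not tested.

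The promoters of Ypel2 and Ypel4 are shown because these members had the largest differences, in opposite directions. Each run holds the 250 bases before the RefSeq transcript start in GRCm38.p6, at chr11:86993763-86994012 on the minus strand for Ypel2 and chr2:84733954-84734203 on the plus strand for Ypel4. Capitals mark an E-box (CANNTG) or a CCAAT box read on either strand. The GENCODE span of Ypel4 begins at 84734058, inside this window, and both boxes marked for Ypel4 lie within that span. Among the members, only the Ypel2 window lies wholly before the GENCODE span of its gene.
Ypel2 promoter: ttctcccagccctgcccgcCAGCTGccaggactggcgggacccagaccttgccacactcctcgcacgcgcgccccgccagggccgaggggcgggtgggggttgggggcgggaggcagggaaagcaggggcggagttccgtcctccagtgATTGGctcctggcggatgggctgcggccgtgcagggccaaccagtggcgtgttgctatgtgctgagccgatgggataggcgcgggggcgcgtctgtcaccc
Ypel4 promoter: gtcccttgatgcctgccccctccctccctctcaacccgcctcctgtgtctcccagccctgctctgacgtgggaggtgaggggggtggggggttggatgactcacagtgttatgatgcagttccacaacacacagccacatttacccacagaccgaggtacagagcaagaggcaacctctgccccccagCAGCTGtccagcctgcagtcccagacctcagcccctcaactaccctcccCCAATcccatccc

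The Ypel4 promoter held 3 CG pairs at 62.0% GC, whereas the Ypel2 promoter held 21 at 72.0% GC and the other members' promoters held 23 to 35 at 68.8% to 76.8% GC. Over the 32851 promoters of the RefSeq table the medians were 6 CG pairs and 52.4% GC. The Ypel2 and Ypel4 promoters each held 1 E-box, a motif present in 66.2% of all promoters, and 1 CCAAT box, present in 33.8%. A CACCC motif, present in 52.0%, occurred in the promoters of all 5 members and is not in capitals above. A GATA motif (AGATAA, also with T as its first or G as its last letter), present in 26.5% of promoters, was found once before Ypel3 and once before the second start of Ypel5. GTAAACA, the FoxO motif, present in 3.17%, was not in these windows. Motifs were searched on both strands, and a match describes letters, not binding.

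Profiles over the 6 cultures were compared as log2 CPM centred on each gene's mean, by the root-mean-square (RMS) difference, among 11565 genes. For the members this measure largely restates the gaps between their log2 fold changes, on which the family was chosen. Ypel3 and Ypel5 had the most similar profiles (RMS 0.049), and Ypel2 and Ypel4 had the least similar (0.93). The coding sequences of Ypel3 and Ypel5 share 51.0% of bases. The 2 genes nearest to Ypel4 were Gadd45a (RMS 0.024), a growth arrest and DNA damage gene at 1449 CPM with DMSO and 690 CPM with NUP-17d, and the phosphatase gene Ppm1e (0.029). Nearest to Ypel2 were Nyx (0.044) and Vegfa (0.049), the vascular endothelial growth factor gene, which stood at 30.9 and 51.0 CPM. The nearest to Ypel3 were Abtb1 (0.021) and Zfp341 (0.022), and the nearest to Ypel5 was Ubap1 (0.011). For Ypel1, with its few reads, the nearest genes were Traf1 and 1110065P20Rik at larger differences of 0.12 and 0.13. These genes were picked for their likeness, so their values are descriptions.

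**Figure D5:**
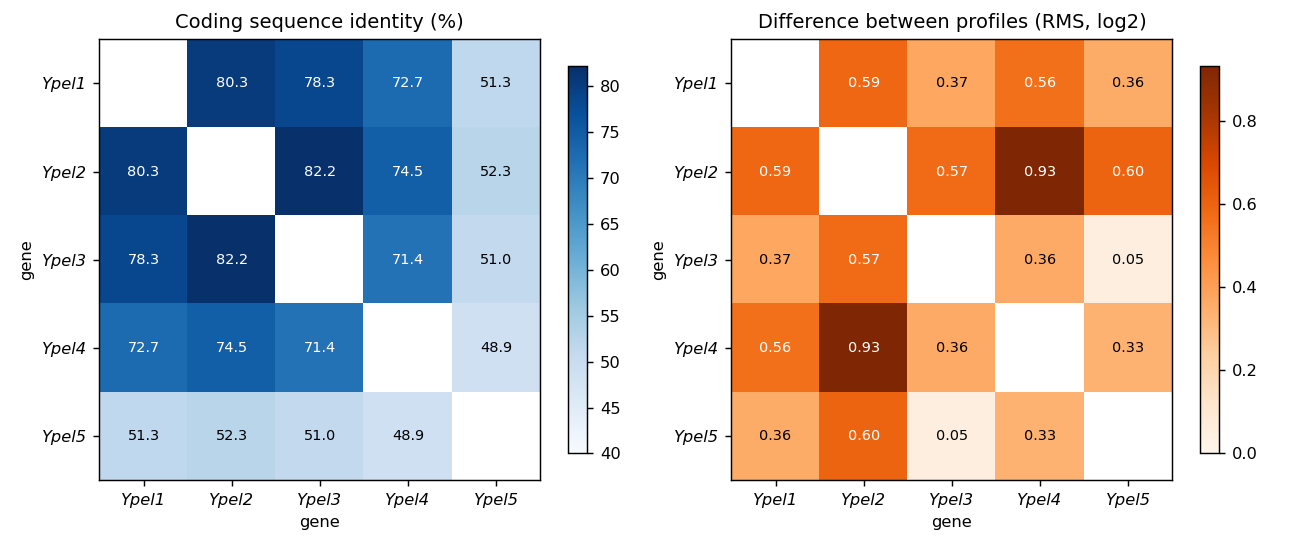
Identity of the coding sequences (left, %) and RMS difference between centred log2 profiles over the 6 cultures (right) for each pair of YPEL genes. Ypel5 has the lowest identities (48.9% to 52.3%). Its profile is nearest to that of Ypel3 (0.049), and the widest profile difference is between Ypel2 and Ypel4 (0.93). The profile differences largely restate the gaps between the log2 fold changes.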

How the data were processed

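For each culture the authors deposited 1 table of genes with reads. Its expected count column holds the authors' estimate of reads per gene, not normalised (27.8% to 28.5% of the values in a table were not whole), and its FPKM column holds the authors' values per transcript length and library total. The labels describe oligo-dT selection, N6 random priming and 50-base single-end DNBseq reads without strand marking, whereas the study's methods name a stranded kit and another instrument. The build is mm10 per the submitters' processing notes, and the aligner and counter are not given in the sources used here. Columns of identifiers and lengths were used as deposited.

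Tables were joined by gene, with a missing gene taken as 0. Expected counts were rounded and fitted with edgeR 4.0.16 in R 4.3.3 (filterByExpr, TMM scaling, quasi-likelihood test, Benjamini-Hochberg adjustment over 12306 genes, threshold 0.05) on all 6 cultures. With 3 cultures per group an exact permutation test cannot go below p = 0.1, so none was used. The same fit was repeated without TMM (library totals only), without the low-count filter, without hemoglobin genes, with the replicate number as a block, and with each of the 6 cultures dropped once. DESeq2 1.42.0 and limma 3.58.1, the latter on FPKM with a pseudocount of 1 or 0.1 before log2, were the other alternatives. On simulated counts from the real means (12285 genes, 200 of them changed), edgeR recovered 197 with 13 false calls. The simulation gave every gene the same dispersion and held no composition shift between the groups. It also held no change as small as that of Ypel3, so it does not cover these features of the data. Pairs of cultures in a group differed by more than counting noise (chi-square per degree of freedom 1.84 to 4.60), so none was counted as 1 library.

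The members, the gene lists (CTLH, red cell membrane, p53 targets, zinc-fold relatives and the markers of 8 cell types) and the tests were chosen with earlier results of these data known. Genes named were the members, all CTLH and zinc-fold genes, the 3 lowest p-values of the membrane and p53 lists, the neighbouring genes and the 2 genes with the most similar profile per member, with exceptions stated where they occur. A few genes that the rule picks are not reported here. Promoters came from RefSeq, and transcripts, genes and coding sequences from GENCODE M21.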

Additional observations from a re-analysis of the deposited data

How the results depend on the processing

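Ypel2, Ypel3, Ypel4 and Ypel5 kept their direction in all 13 alternatives to the edgeR fit with TMM. In each, 4 of the 5 members, chosen on these values, passed the threshold, but with library totals only so did 74.1% of all genes tested. Their sizes moved by more than the spread between cultures in the 3 alternatives without composition correction. The number of genes called was 9115 with library totals only (92.8% of them higher, against 46.5% of the 4346 with TMM), 9059 with limma on log2(FPKM + 1) and 9038 on log2(FPKM + 0.1), and 2971 with DESeq2 (39.1% higher). In these 3 alternatives the zinc-fold relatives called numbered 3, all higher, in place of 1 lower. They numbered 0 with DESeq2 (0 at an unadjusted p under 0.05), 0 without the low-count filter (edgeR, 1 unadjusted), 0 with hemoglobin genes removed (edgeR, 1 unadjusted), and 0 to 1 when 1 culture was left out. The counts for the CTLH, membrane and p53 lists stayed within 1.5 times the main count in all 13 alternatives, although the split by direction, like that of the marker lists, changed with library totals only. Leaving out 1 culture gave 3713 to 4008 genes called.

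Deviations from the group mean were not shared by same-numbered cultures (correlations -0.064 to 0.013), so the numbers share only a label. With the replicate number as a block 4543 genes were called, 4329 of them shared with the 4346 called without it, and the block left the members called at 4, with 9 p53 targets called in place of 8 and the counts for the CTLH, membrane and zinc-fold lists as they were. The order of levels was the same with FPKM as deposited, which differs only by the TMM factor of each culture. Such a factor cannot change the order of genes within a culture. With GENCODE lengths the order did change, with Ypel4 below Ypel3 in the DMSO group (224 against 470 CPM per kilobase).

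Only relative abundance can be read, since no spike-in was used here. Ypel1, with 12.0 to 24.1 counts per culture, was too shallow to show a difference of the size seen in Ypel3 or Ypel5. The lists are short, and markers of several lineages were present in each culture.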
